A study of Canis lupus familiaris with 4 samples.

Results

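Stem-like cells of P114, a cell line derived from a canine mammary cancer, were compared after co-culture with tumour-associated macrophages and after single culture. The comparison rests on the 2 arrays whose cell line label is P114, of 4 arrays in the series. The other 2 arrays hold the same comparison in CMT-U27, a second canine mammary cancer line. In all groups the cells had been stained with antibodies and sorted as Sca1+/EpCAM+/CD44+, and all were collected at day 3. Each array carried RNA of a co-culture and of a single culture of the same line in different dyes. On P114 array 1 the co-culture was in Cy3 and the single culture in Cy5, and on P114 array 2 the dyes were exchanged. Array numbers follow the record order. The labels describe the arrays of a line as biological replicates, but do not say whether their cultures or RNA extracts were separate. Nor do they say where the macrophages came from or whether they were removed before RNA isolation.

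Tumour-associated macrophages exchange growth factors, chemokines and proteases with carcinoma cells. CSF1 from the tumour cells sustains macrophages, and macrophage cytokines such as TNF and IL-1 activate the transcription factor NF-kB in the tumour cells. NF-kB targets include chemokine genes, the prostaglandin synthase gene PTGS2, the urokinase gene PLAU and NFKBIA, whose product holds NF-kB in the cytoplasm and so closes a feedback loop. EpCAM and CD44 are surface adhesion proteins, and Sca1 is a surface antigen of stem and progenitor cells. They are used together to enrich cells with stem-like properties.

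All values below are log2 ratios of the co-culture signal over the single-culture signal, so that 1 is a doubling and negative values mean a lower signal in co-culture. Of 43603 probes, 28692 stood well above background on both arrays of some line and culture, and these gave 10457 genes with a symbol, each shown by its brightest probe. Probes well above background made up 89.4% in the co-culture channel and 91.7% in the single-culture channel of array 1, against 60.4% and 61.6% on array 2, and 0 spots were saturated. On the CMT-U27 arrays these shares lay between 57.9% and 65.7%, so array 1 stood apart. Before loess, which removes any trend of the ratio with brightness, the median ratio on array 1 went from -1.95 in the dimmest of 5 equal groups of probes to -0.87 in the brightest. On array 2 the same medians lay between 0.02 and 0.05. Ratios after loess are thus relative to other genes of like brightness. When arrays were centred on their median and no loess was used, the median of all tested probes moved to 0.16.

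Shown first are the probes of 3 genes, because each gene was read by several probes and they stand for the main patterns: PLAU was higher and TIMP3 lower on both arrays, and IL8 pointed in opposite directions. The first 30 bases of each probe of 60 bases are given 5′ to 3′ in lower case, as the array files list them, with the probe's position on CanFam3.1. Capitals are not used because no motif was searched. An interval longer than the probe means that the files place the ends of the probe apart in the genome.
PLAU probe 1, chr4:24332536-24332945, plus strand: ttccactgactatctctatccagagcagct
PLAU probe 2, chr4:24331270-24331329, plus strand: agtttcaatgtggccagaaggctctgaggc
TIMP3 probe 1, chr10:30623756-30623815, minus strand: ccctatctggaaggaatgtatttgttgcta
TIMP3 probe 2, chr10:30625811-30625870, minus strand: gaagcctgactctgcaatccgctgtagagt
TIMP3 probe 3, chr10:30626270-30626329, minus strand: ggacataagctaattttttacaggacacag
TIMP3 probe 4, chr10:30629505-30637057, minus strand: aggggccctttggcacgctggtctatacca
IL8 probe 1, chr13:62436280-62436339, plus strand: ttctgtcaagagtcagttcaggacttcgat
IL8 probe 2, chr13:62436398-62436736, plus strand: ctcagaaatcattgtaaagcttttcaatgg
IL8 probe 3, chr13:62436743-62437238, plus strand: acaaaaggttgtgcagatatttctaaagaa
IL8 probe 4, chr13:62438080-62438139, plus strand: gggttgaatgatcataaccctgagttagaa

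The 2 arrays gave opposite signs for most genes. Of 10457 genes, 2483 were higher in co-culture on both arrays (23.7%), 1991 were lower on both (19%) and 5983 had opposite signs (57.2%). Counting only genes beyond 0.3 on both arrays, 41 were higher on both, 33 were lower on both and 223 were opposite. Across genes the ratios of the arrays had a Pearson correlation of -0.14, given as a description since the genes share the 2 arrays and their dyes. In the limma fit over all 4 arrays, with a term for the line and a probe-specific dye term, 0 of 28692 probes passed a Benjamini-Hochberg adjusted p of 0.05 in P114 (0%), and the smallest adjusted p was 0.797. At an unadjusted p below 0.05 there were 1086 probes higher and 672 lower. By gene these were 410 higher (3.92%) and 289 lower (2.76%). The dye term takes up a gap between the P114 arrays where CMT-U27 has a like gap. These p-values therefore do not measure how well the P114 arrays agree. None of the genes below passed the adjusted test in P114, so they are described by their value on each array.

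**Figure D1:**
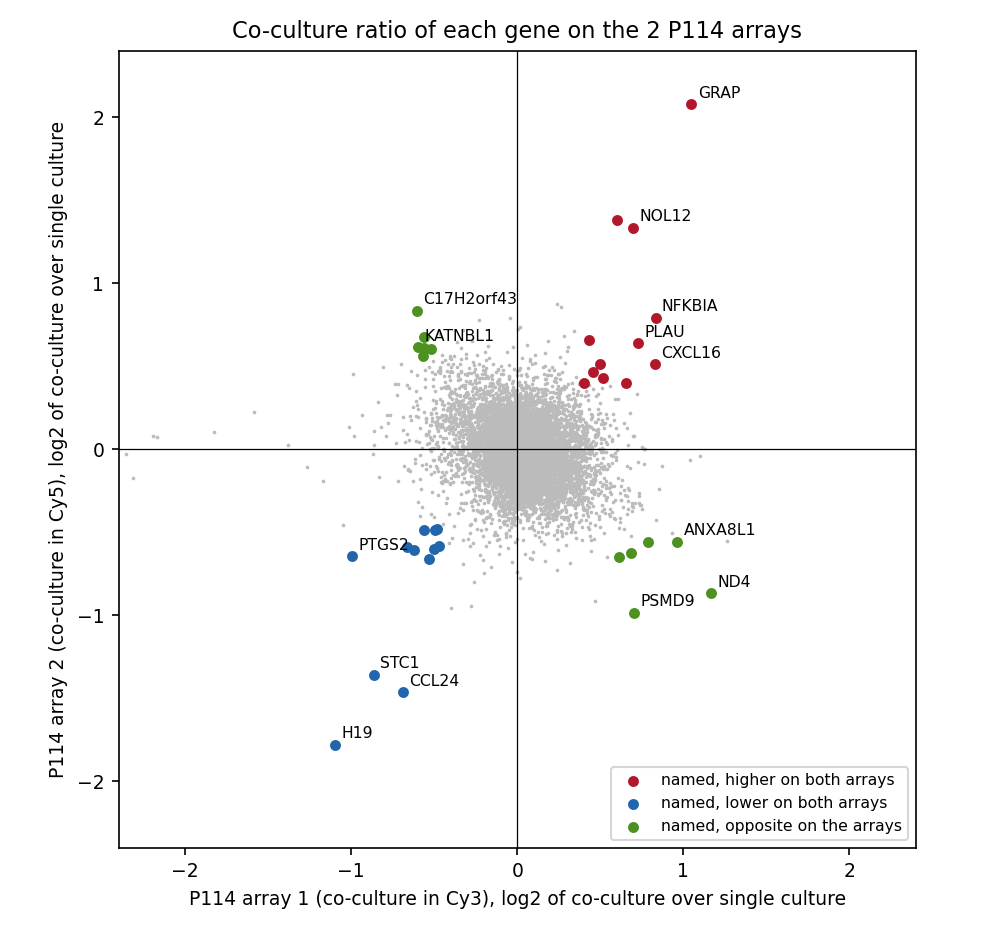
Each point is 1 of 10457 genes, with its log2 ratio of co-culture over single culture on P114 array 1 (x axis) and on P114 array 2 (y axis); coloured points are genes named by rule, and 18 genes beyond 2.4 on either axis lie outside the frame. NFKBIA and PLAU sit in the upper right, H19 and STC1 in the lower left, and ND4 and PSMD9 in the lower right, where the arrays disagree.

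Genes of the urokinase system were led by PLAU and PLAUR, which stood at like values on both arrays. PLAU encodes urokinase, the protease that turns plasminogen into plasmin at the cell surface. Its brightest probe (PLAU probe 1 above) stood at 0.73 on array 1 and 0.64 on array 2. Its levels after loess were 1585 in co-culture against 956 in single culture on array 1 and 2392 against 1534 on array 2. Such levels are derived from the ratio after loess and are not the measured intensities of the dyes. The mean ratio was 0.69 ± 0.06 (SD, n = 2 arrays), or 1.61-fold (limma unadjusted p = 0.00105, adjusted p = 0.797). PLAU probe 2 stood at 0.60 and 0.43. PLAUR, the urokinase receptor, stood at 0.45 and 0.46, and F3, which encodes tissue factor, the starter of coagulation, at 0.31 and 0.61. PLAT, the tissue-type activator, stood at 0.18 and 0.36. Of 10 tested genes in the list of this system, 5 were higher on both arrays, 1 was lower on both and 4 had opposite signs, against 23.7%, 19% and 57.2% of all genes. Unadjusted p was below 0.05 for 4 genes higher and 0 lower, against 3.92% and 2.76% of all genes.

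Targets of NF-kB did not move in a common direction in P114. NFKBIA stood at 0.83 and 0.79, a mean of 0.81 ± 0.03 (SD, n = 2 arrays) or 1.76-fold, and its second probe at 0.30 and 0.63. CXCL16, a membrane-bound chemokine that is also shed, stood at 0.83 and 0.51, and CCL2, the monocyte chemoattractant, at 0.30 and 0.59. NFKB2 (0.44 and 0.18) and RELB (0.14 and 0.25), which encode subunits of the non-canonical pathway, were also higher on both arrays. In the other direction, PTGS2 stood at -0.99 and -0.64. CCL24, an eosinophil chemoattractant, stood at -0.69 and -1.46, and CSF2, the granulocyte-macrophage growth factor, at -0.22 and -0.63. TNFAIP3, a feedback inhibitor like NFKBIA, stood at 0.01 and 0.03. Of 31 tested genes, 13 were higher on both arrays, 8 lower on both and 10 opposite, against 23.7%, 19% and 57.2% of all genes, and their median was 0.02 against 0.01 over all genes. Unadjusted p was below 0.05 for 5 genes higher and 4 lower, where all genes gave 3.92% and 2.76%.

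IL8, a neutrophil chemoattractant gene and NF-kB target, was read by 4 probes and all of them changed sign between the arrays. In the order of the sequences above, probes 1 to 4 stood at -0.57, -0.72, -0.81 and -0.37 on array 1. On array 2 they stood at 0.75, 0.76, 0.92 and 0.50. The mean of the brightest probe was 0.07 ± 0.61 (SD, n = 2 arrays), so the P114 arrays give no direction for IL8. Both CMT-U27 arrays were above 0 at each of the 4 probes, from 0.10 to 0.61.

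Macrophage markers were examined as the RNA of macrophages could have been in the co-culture channel. Of 28 listed markers on the array, 8 had a probe well above background on both arrays in co-culture and 7 in single culture. The background-corrected signal summed over the brightest probe of each was 4687 in co-culture and 4895 in single culture on array 1, and 1699 and 2027 on array 2. It was lower in co-culture on each array. So were the same sums for epithelial markers (46121 against 51373 on array 1 and 44722 against 49087 on array 2) and for sort and stem-like markers (71183 against 81840 and 65031 against 68845). The sums of fibroblast, lymphocyte and endothelial markers changed direction between the arrays. Each sum depends mostly on a few bright markers. In the macrophage sum, CD86 had 664 against 917 on array 1 and 585 against 773 on array 2. CD68 had 1056 against 878 on array 1 and 675 against 747 on array 2. The part of macrophage RNA in the ratios of other genes was not tested. CSF1R, AIF1, PTPRC, SPI1 and C1QA were well above background in both channels of array 1 and in neither of array 2. VSIG4 was so in no channel. Among the 8 tested markers, CD14 stood at 0.15 and -0.07, CD68 at 0.19 and -0.12, LAPTM5 at -0.10 and -0.34 and CD86, a costimulatory ligand, at -0.34 and -0.35. In mixed RNA, fewer cells of a type and less RNA per cell cannot be told apart.

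Epithelial markers were detected in both cultures. Of 25 epithelial markers on the array, 22 had a probe well above background on both arrays in each culture. Of the 23 tested, 5 were higher on both arrays, 10 lower on both and 8 opposite, against 23.7%, 19% and 57.2% of all genes. EPCAM, read by its brightest probe, stood at -0.12 and 0.00. CD44 was well above background in all 4 channels but stood at 0.35 on array 1 and -0.34 on array 2. PROM1, which encodes the stem cell marker CD133, was lower on both arrays, at -0.50 and -0.60. MYC stood at -0.60 and -0.31. Of 18 tested sort and stem-like markers, 4 were higher on both arrays, 8 lower on both and 6 opposite, where the same shares of all genes apply. KRT5, a basal keratin, stood at -0.26 and -0.80, KRT18, a luminal keratin, at -0.33 and -0.20, and CDH1, which encodes E-cadherin, at -0.29 and 0.49. MUC1, a mucin gene, stood at 0.34 and 0.09, and TJP1, a tight junction gene, at 0.03 and 0.32. With median centring EPCAM stood at 0.36 and KRT18 at 0.17, the reverse of their signs after loess. A probe was well above background on both arrays for 11 of 16 fibroblast markers in co-culture and 12 in single culture, for 10 of 15 lymphocyte markers in co-culture and 9 in single culture, and for 5 of 10 endothelial markers in each culture. Of all probes, 60.4% in co-culture and 61.6% in single culture were so on array 2, counted by probe and not by gene. Detection of a marker, here or among macrophage markers, is thus not taken as presence of its cell type.

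The other genes named as higher on both arrays were of varied function. GRAP, an adaptor protein gene of Ras signalling, had the largest mean, with 1.05 and 2.08, but rested on 1 probe and the arrays lay far apart (SD 0.73). NOL12, a nucleolar protein gene, stood at 0.70 and 1.33, while its second probe stood at 0.12 on each array. ZNF17, a zinc finger gene, stood at 0.60 and 1.38. Closer agreement was found for CCDC80, which encodes a secreted matrix protein (0.50 and 0.51), WNT7A, a Wnt ligand gene (0.43 and 0.66), GNPDA1, an enzyme of glucosamine metabolism (0.52 and 0.43), and ESPL1, the separase gene (0.65 and 0.40). COL12A1, a fibril-associated collagen, stood at 0.40 on each array, and its 4 probes were all higher on both arrays. Of the 12 genes named as higher, each chosen by its brightest probe, 5 had several tested probes, and the further probes of these 5 were also higher on both arrays. Among all 4230 genes with 2 or more tested probes, not chosen in this way, 8.01% had every probe higher on both arrays.

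The genes named as lower on both arrays included a non-coding RNA, hormone and growth factor genes and a hormone receptor gene. H19, an imprinted long non-coding RNA, stood at -1.10 and -1.78. Its levels after loess, derived from the ratio, were 325 in co-culture against 695 in single culture on array 1 and 170 against 582 on array 2. STC1, which encodes the glycoprotein hormone stanniocalcin, stood at -0.86 and -1.36, a mean of -1.11 ± 0.35 (SD, n = 2 arrays), or 2.16-fold lower. Its other probes stood at -0.88 and -1.17, and at -0.15 and -0.69. EREG, an EGF receptor ligand, stood at -0.62 and -0.60. PGR, the progesterone receptor gene, stood at -0.66 and -0.59. MT1E, a metallothionein that binds zinc and copper, stood at -0.53 and -0.66, and SERPINB5, which encodes maspin, at -0.47 and -0.58. MAN1A1, a mannosidase of the Golgi, stood at -0.50 and -0.49, and CD38, an NAD-degrading surface enzyme, at -0.49 and -0.48. Of the 12 genes named as lower, chosen in the same way, 5 had several tested probes, and in 4 of these the further probes were also lower on both arrays. Among all 4230 genes with 2 or more tested probes, not so chosen, 4.94% had every probe lower on both arrays.

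TIMP3, an inhibitor of matrix metalloproteinases that is bound to the matrix, was read by 4 probes. In the order of the sequences above, probes 1 to 3 stood at -0.56, -0.81 and -0.54 on array 1 and at -0.49, -0.81 and -0.63 on array 2. Probe 4, whose interval lies at the highest coordinates on the minus strand and so farthest 5′ in the transcript's direction, stood at -0.02 and -0.13. All 4 were below 0 on both arrays, and probe 4 was nearest to 0. LOXL2, a collagen cross-linking enzyme, stood at -0.50 and -0.41, and ADAMTS1, a matrix protease, at -0.19 and -0.26. In the matrix and protease list, COL6A1 (0.68 and 0.22) and COL4A1 (0.40 and 0.13) were higher on both arrays. Of its 35 tested genes, 8 were higher on both arrays, 9 lower on both and 18 opposite, against 23.7%, 19% and 57.2% of all genes. Counts at an unadjusted p below 0.05 were 4 higher and 4 lower (3.92% and 2.76% of all genes), and 1 of the lower genes, HSPG2, stood at -1.26 on array 1 and only -0.10 on array 2.

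**Figure D2:**
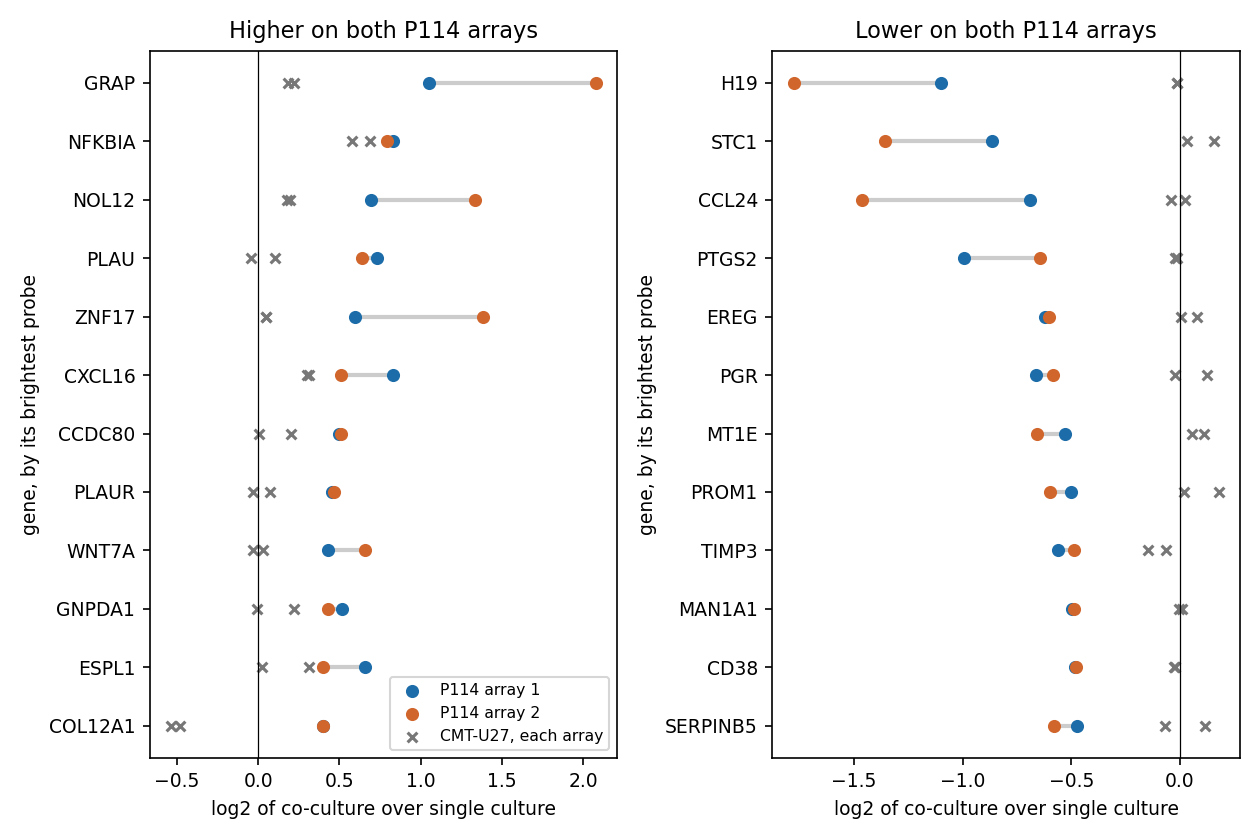
Filled points give the log2 ratio of co-culture over single culture on P114 array 1 and array 2 for the 12 genes named as higher and the 12 named as lower, joined by a line; crosses give the 2 CMT-U27 arrays. NFKBIA is high in both lines, COL12A1 stands at 0.40 on both P114 arrays and below 0 in CMT-U27, and the lower genes lie near 0 in CMT-U27. Of these lower genes, PGR was well above background in no CMT-U27 channel. H19, CCL24 and PTGS2 were so on only 1 CMT-U27 array in each culture. For these genes a CMT-U27 ratio near 0 cannot tell a lack of response from a lack of signal.

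Genes of DNA replication and of mitosis were mostly higher on both arrays. Of 37 replication genes, 25 were higher on both arrays, 1 was lower on both and 11 were opposite, against 23.7%, 19% and 57.2% of all genes. Their median was 0.22 on array 1 and 0.11 on array 2. MCM2 stood at 0.72 and 0.33, MCM5 at 0.59 and 0.30 and MCM4 at 0.35 and 0.17, all subunits of the replicative helicase. POLE and POLD1, the catalytic subunits of the replicative polymerases, stood at 0.50 and 0.22 and at 0.36 and 0.23. Against these, PCNA, the sliding clamp, stood at 0.11 and -0.13, MCM7 at 0.31 and -0.17, and GINS1 at -0.32 and 0.72. Unadjusted p was below 0.05 for 9 genes higher and 0 lower, against 3.92% and 2.76% of all genes.

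Of 31 mitosis and kinetochore genes, 19 were higher on both arrays, 1 was lower on both and 11 were opposite, against the same shares of all genes. PLK1, a mitotic kinase gene, stood at 0.61 and 0.30, CDC20, an activator of the anaphase-promoting complex, at 0.45 and 0.19, and CENPF, a kinetochore protein gene with 2 probes higher on both arrays, at 0.28 and 0.38. The kinetochore subunit genes NDC80 and NUF2 stood at 0.21 and 0.35 and at 0.09 and 0.51, and TOP2A at 0.17 and 0.36. BIRC5 (0.24 and -0.19) and UBE2C (0.36 and -0.21) changed sign. Counts at an unadjusted p below 0.05 were 11 higher and 0 lower, where all genes gave 3.92% and 2.76%. The mean medians of both cell-cycle lists, 0.16 each, lay between 0.14 and 0.22 in all alternatives that kept loess or used the software's ratio, apart from replication on array 2 alone (0.11), and at 0.51 and 0.55 with median centring, where all probes had a median of 0.16.

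Among targets of p53, which induces cell-cycle arrest genes, more were lower on both arrays than higher on both. MDM2, the ubiquitin ligase that degrades p53, stood at -0.57 and -0.35. CDKN1A, which encodes the cell-cycle inhibitor p21, stood at -0.52 and -0.26, with other probes at -0.19 and -0.94 and at 0.24 and -0.21. PLK2 stood at -0.28 and -0.45, CCNG1 at -0.46 and -0.16 and SESN1 at -0.45 and -0.14. XPC, a DNA repair gene, stood at 0.16 and 0.33, and SFN at 0.73 on array 1 and -0.28 on array 2. Of 23 tested targets, 6 were higher on both arrays, 10 lower on both and 7 opposite, against 23.7%, 19% and 57.2% of all genes. At an unadjusted p below 0.05 there were 1 higher and 7 lower, against 3.92% and 2.76% of all genes. The list's median of -0.06 turned to 0.14 with median centring.

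Cholesterol synthesis genes had a median below that of all genes. INSIG1, a sterol-regulated brake on the pathway, stood at -0.45 on each array, with other probes at -0.18 and 0.00 and at -0.17 and -0.26. HMGCS1, an early enzyme of the pathway, stood at -0.66 and -0.12, FDFT1 and SQLE, which make and oxidise squalene, at -0.24 and -0.37 and at -0.22 and -0.37, and CYP51A1 at -0.20 and -0.44. Of 23 genes, 2 were higher on both arrays, 10 lower on both and 11 opposite, against 23.7%, 19% and 57.2% of all genes. Unadjusted p was below 0.05 for 0 higher and 6 lower, against 3.92% and 2.76%. The median was -0.06 on array 1 and -0.18 on array 2, and the median of the mean, -0.12, turned to 0.12 with median centring, which is below the 0.16 of all probes.

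**Figure D3:**
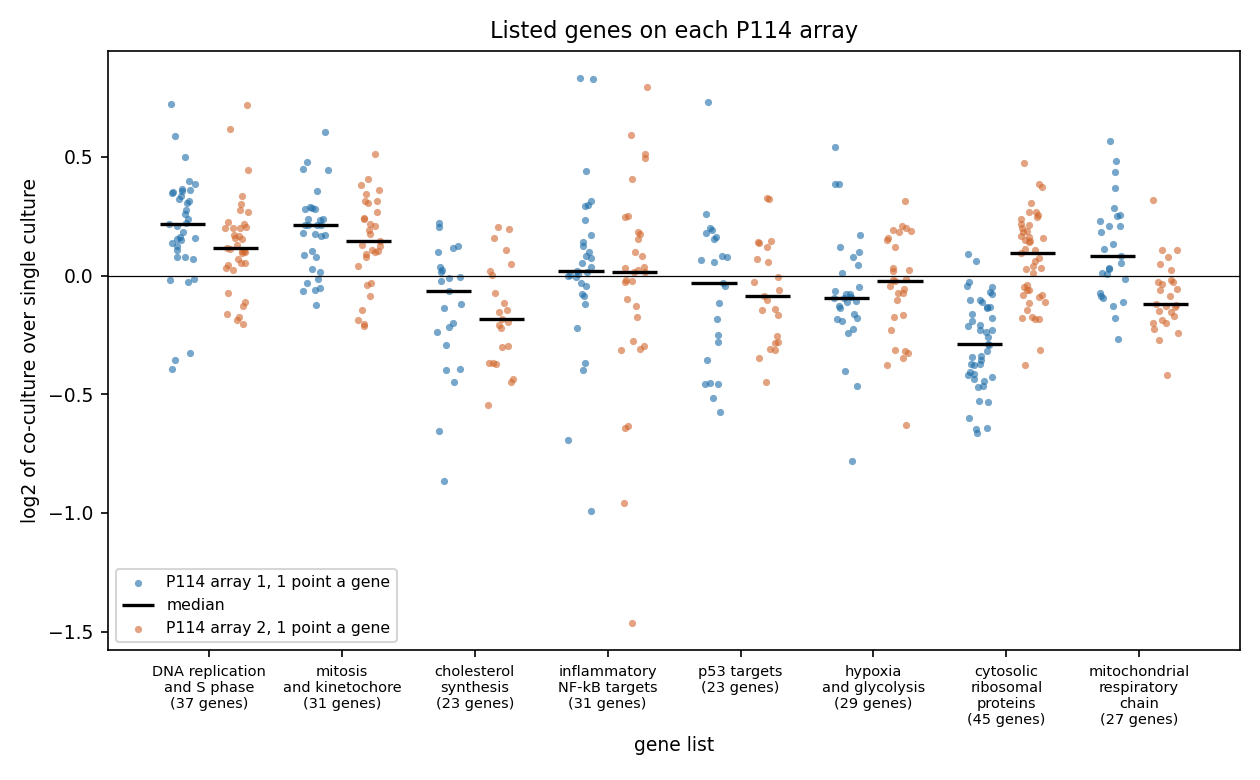
Points give the log2 ratio of co-culture over single culture for each tested gene of 8 lists on P114 array 1 and array 2, with black lines at the medians. The replication and mitosis lists lie above 0 on both arrays, while the ribosomal protein list lies at -0.29 on array 1 and 0.10 on array 2.

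Hypoxia, angiogenesis and Wnt genes gave list medians of -0.05, 0.02 and 0.05, and their counts below stand against 23.7% of all genes higher on both arrays, 19% lower on both and 57.2% opposite. DDIT4, a stress-induced inhibitor of mTOR signalling, stood at -0.23 and -0.38, and EGLN3, an oxygen-sensing hydroxylase, at -0.13 and -0.32. PFKFB3 stood at -0.11 and -0.63, with its other 3 probes between -0.09 and 0.05. VEGFA stood at 0.16 and -0.06. ANGPTL4 (0.36 and 0.33), HBEGF, an EGF receptor ligand gene (0.42 and 0.35), ADM, a vasodilator peptide gene (0.43 and 0.24), and EFNA1, an ephrin gene (0.24 and 0.45), were higher on both arrays. Of 25 tested angiogenesis genes, 12 were higher on both arrays, 6 lower on both and 7 opposite, with unadjusted p below 0.05 for 5 higher and 3 lower (3.92% and 2.76% of all genes). Of 29 hypoxia and glycolysis genes, 4 were higher and 12 lower on both arrays, and 13 were opposite. Of 24 Wnt pathway genes, 11 were higher and 1 lower on both arrays, and 12 were opposite, and DKK3, a secreted antagonist, stood at 0.27 and 0.47 by its brightest probe with its other 2 probes between -0.08 and 0.03.

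Immune surface genes and interferon targets were close to 0. DLA88, a canine class I antigen-presenting molecule, stood at 0.36 and 0.20, TAP2, a peptide transporter gene, at 0.25 and 0.14, and B2M, the class I light chain, at 0.30 and 0.15. ISG20, an interferon-induced exonuclease, stood at 0.23 and 0.40, STAT2 at 0.16 and 0.13, and OAS2 at 0.01 and -0.36. The medians were 0.02 over 21 antigen presentation genes and 0.01 over 22 interferon genes, against 0.01 over all genes. Among genes of epithelial-mesenchymal transition, TGFBR2, the TGF-beta receptor, stood at -0.30 and -0.54 with its 3 probes lower on both arrays, SNAI2, a transcriptional repressor, at -0.18 and -0.29 and VIM, which encodes vimentin, at -0.38 and 0.25. AXL, a receptor tyrosine kinase gene, stood at 0.26 and 0.86 by 1 probe and -0.18 and 0.06 by the other. Of the immediate early genes, FOS stood at -0.20 and -0.74 and EGR1 at 0.07 and -0.41, and 6 of 24 were higher on both arrays, 8 lower on both and 10 opposite, against 23.7%, 19% and 57.2% of all genes. Of 26 ATF4 and unfolded protein response genes, 9 were higher and 3 lower on both arrays and 14 were opposite, against the same shares, with XBP1, a secretory stress regulator, at 0.38 and 0.27.

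Most genes of the mitochondrial genome and of the cytosolic ribosome had opposite signs on the arrays, as did 57.2% of all genes. Of 12 tested mitochondrial genes, 8 were higher on array 1 and lower on array 2, 1 was in the other order, 2 were higher on both and 1 was lower on both. ND4, a subunit of respiratory complex I, stood at 1.17 on array 1 and -0.87 on array 2. ND2 stood at 0.69 and -0.63, ND1 at 1.26 and -0.55, and ND5 at 0.75 and -0.36. Of 7 tested ND genes, a group chosen after values of ND4 and ND2 were seen, 6 were higher on array 1 and lower on array 2, and ND6 was below 0 on both. ATP6 (0.25 and 0.17) and COX1 (0.10 on each) were above 0 on both. Of 45 ribosomal protein genes, 29 were lower on array 1 and higher on array 2, 2 had the other opposite order (68.9% opposite in all) and 14 were lower on both, against 19% of all genes. RPL8 stood at -0.64 and 0.47, RPS4X at -0.66 and 0.39 and RPL13A at -0.44 and -0.18. The list's median was -0.29 on array 1 and 0.10 on array 2, and that of 27 nuclear respiratory chain genes was 0.08 and -0.12. Neither list has a direction shared by the arrays, and with median centring their medians over both arrays stood at 0.35 and 0.41.

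Other genes with large opposite ratios included BSG, which encodes basigin, an inducer of matrix metalloproteinases, at 0.79 and -0.56. All 6 of its probes were above 0 on array 1 and below 0 on array 2. PSMD9, a proteasome assembly factor gene, stood at 0.71 and -0.98, ANXA8L1, an annexin gene, at 0.96 and -0.56 and PPP2R4, a phosphatase activator gene, at 0.61 and -0.65. In the other orientation were KATNBL1 (-0.60 and 0.62), C17H2orf43 (-0.61 and 0.84), SPPL2A, an intramembrane protease gene (-0.56 and 0.61), WDR89 (-0.57 and 0.56), TMEM2, a hyaluronidase gene (-0.56 and 0.68), and TMPO, a nuclear lamina protein gene (-0.52 and 0.61). All 4 TMPO probes were below 0 on array 1 and above 0 on array 2, so the disagreement was not limited to single probes for BSG, TMPO and IL8. Of the 3 PSMD9 probes, 1 was higher on both arrays. The log2 ratio of Cy5 over Cy3 for PSMD9 was -0.71 and -0.98 in P114 and -0.63 and -0.98 in CMT-U27. For TMEM2 it was 0.56 and 0.68 in P114 and 0.43 and 0.71 in CMT-U27. C17H2orf43 and TMPO also had the same dye brighter on all 4 arrays, by less in CMT-U27. BSG, ANXA8L1, PPP2R4, KATNBL1, SPPL2A and WDR89 did not.

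Ratios beyond 0.3 on both arrays, alike or opposite, were found mainly among bright probes. Of 561 such probes with opposite signs, 2 were in the dimmest of 5 equal brightness groups, where 0 were alike, and 232 in the brightest, where 23 probes were higher and 29 lower on both arrays. The offset of 50 added to both dyes draws the ratios of dim probes towards 0. These counts therefore cannot tell whether dim probes differed less. Of the probes beyond 0.3 on both arrays, 75.2%, 73.6% and 81.7% were opposite in the 3 brightest groups, from dimmer to brighter. Across probes the arrays had a Pearson correlation of -0.07 and a Spearman correlation of -0.18 in the dimmest group, and of -0.30 and -0.33 in the brightest. Because the dyes were exchanged, an opposite pair has the same dye brighter on both arrays. Of the 561 probes, 284 were brighter in Cy5 and 277 in Cy3, and 219 (39.0%) had the same dye brighter on both CMT-U27 arrays too, 21 of them beyond 0.3 on all 4 arrays. Taken singly, CMT-U27 array 1 had that dye brighter for 291 probes (51.9%) and array 2 for 402 (71.7%). The product of these shares is 37.2%, but each share can itself hold a dye effect, so the product cannot tell whether dyes had a part. The same shares over all probes are not given here. The 10 spike-in controls, which are mixed at set ratios between the dyes, had Cy5 over Cy3 ratios in nearly the same order on both P114 arrays (Pearson correlation 0.998), but 9 of 10 were higher on array 2, by a median of 0.22 and at most 0.33 on the log2 scale over all 10. Of these controls 2, with ratios near 0, changed sign. What part the dyes had in the opposite ratios of single genes was not tested.

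**Figure D4:**
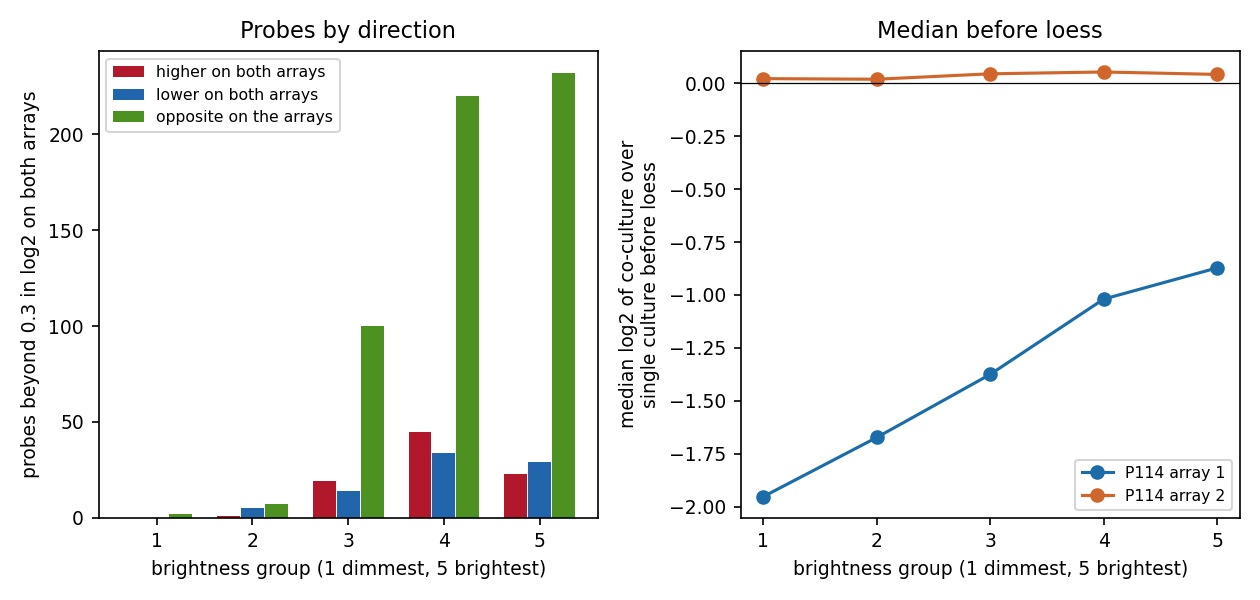
The left panel counts probes beyond 0.3 in log2 ratio on both P114 arrays, by direction, in 5 equal groups of probes by brightness, and the right panel gives the median log2 ratio before loess in the same groups. Opposite probes number 232 in the brightest group, and the median before loess goes from -1.95 to -0.87 on array 1 but stays between 0.02 and 0.05 on array 2. The offset of 50 added to both dyes draws the ratios of dim probes towards 0, so few of them can pass 0.3.

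Extreme values were mostly those of array 1 alone. Beyond 1 in log2 ratio, 28 genes were lower in co-culture on array 1. On array 2, 26 of these were within 0.3 of 0 and 2 were lower than that, H19 and SLC5A3, a myo-inositol transporter gene (-1.05 and -0.46). The 3 lowest, chosen after their values were seen, were ZBTB37 at -6.15, GRB10, an insulin receptor adaptor gene, at -4.84 and RCN2 at -4.66 on array 1, and they stood at -0.17, -0.01 and -0.24 on array 2. On the CMT-U27 arrays the 28 genes lay between -0.28 and 0.26. Of 7 genes higher than 1 on array 1, only GRAP was above 0.3 on array 2. In the other order, 3 genes were higher and 3 lower than 1 on array 2 (GRAP, ZNF17 and NOL12, and H19, STC1 and CCL24), and all 6 were beyond 0.3 in the same direction on array 1. By the scanner software's own p-value for each spot ratio, at a threshold of 0.01, 593 genes differed on array 1 and 378 on array 2, of which 11 were higher and 14 lower on both arrays, and 38 were opposite.

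Few probes were well above background in 1 culture only. On both arrays 5 probes were so in co-culture and not in single culture, with CDKL3 as the only named gene (at least 1.09-fold higher in co-culture, with 0.05 on array 1 and 0.25 on array 2). In the other direction there were 16 probes, and the named genes were THNSL1, LHX4, CD1C and ZNF275. The THNSL1 probe was 1.93-fold lower in co-culture in the mean of the arrays, with -1.78 on array 1 and only -0.11 on array 2. Of the 3 THNSL1 probes, 2 were well above background in both cultures. LHX4 (-0.01 and -0.13) and ZNF275 (-0.02 and -0.06) were 1.05-fold and 1.03-fold lower in the mean, and CD1C had opposite signs (0.01 and -0.13). Each fold sets the brighter culture against the lowest signal well above background or the probe's own, whichever was higher. For THNSL1, LHX4 and ZNF275 the probe's own signal was used, so their folds are mean ratios and not bounds.

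The response of P114 was set against that of CMT-U27 in the same fit. No probe passed the adjusted test of the difference (0 of 28692, 0%), and the smallest adjusted p was 0.264. At an unadjusted p below 0.05 there were 821 probes, and 356 genes (3.4%). The largest difference by p was that of SAA1, the gene of serum amyloid A, made in the acute-phase response. It stood at -0.40 and -0.96 in P114 and at a mean of 3.23 ± 0.17 (SD, n = 2 arrays) in CMT-U27 (limma unadjusted p = 9.21e-06). Of its 5 probes, 3 were lower and 2 higher on both P114 arrays, so the P114 direction depends on the probe, while the CMT-U27 arrays were above 0 at all 5. CCL8, a monocyte chemoattractant, was near 0 in P114 (-0.04 and -0.13) and stood at 1.28 and 1.05 in CMT-U27. KRT15, a basal keratin gene, stood at 0.02 and -0.25 in P114 and at 0.71 and 0.91 in CMT-U27.

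COL12A1 and INSIG1 pointed in opposite directions in the lines on all 4 arrays. COL12A1 stood at 0.40 on each P114 array and at -0.54 and -0.48 in CMT-U27 (limma unadjusted p = 0.000678 for the difference). INSIG1 stood at -0.45 on each P114 array and at 0.32 and 0.28 in CMT-U27 (limma unadjusted p = 0.00132). STC1, low in P114, stood at 0.03 and 0.16 in CMT-U27. All 23 cholesterol synthesis genes had a higher mean in CMT-U27 than in P114, with a median difference of 0.25, against 6301 of 10457 genes and 0.03 over all genes. Unadjusted p was below 0.05 for 7 of the 23, against 3.4% of all genes. The 31 NF-kB targets had a median difference of 0.24, with 24 higher in CMT-U27 and unadjusted p below 0.05 for 13, against the same 3.4% of all genes. NFKBIA stood at 0.69 and 0.58 in CMT-U27, and its difference of -0.18 with a standard error of 0.10 had an unadjusted p of 0.137. For PLAU, at 0.10 and -0.05 in CMT-U27, the difference was -0.66 with a standard error of 0.11 (limma unadjusted p = 0.00418).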

How the data were processed

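RNA of co-culture and single culture was hybridised to 2-colour Agilent arrays (design 021193). Each deposited file lists, per spot, the linear intensity and local background of both dyes, the software's log10 ratio of Cy5 over Cy3 and its p-value, written by Agilent Feature Extraction (version 10.10.1.1 per the file headers, 10.7.3.1 per the submitters' processing notes). The authors' value table of the series was identical to that log10 ratio (largest gap 0, median 0 on every array), so it is not turned for the dye swap. The labels name a labelling kit for miRNA.

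Mean intensity was corrected by normexp (offset 50) against the median local background, loess was applied within arrays with controls at weight 0, marked spots were left out, spots of a probe were averaged, and log2 ratios computed from the deposited intensities were turned to co-culture over single culture by the labelled dyes. A further 40 probes that passed the filter lacked a value on an array because of a marked spot and were not fitted. Gene symbols are those of the files. Of 13351 symbols, 12209 were in the RefSeq table of UU_Cfam_GSD_1.0, used for names only.

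limma 3.58.1 (data.table version 1.17.8, R 4.3.3) fitted a coefficient per line and a dye term, with 1 residual and 2.76 prior degrees of freedom. With the dye term, the residual compares the gap between the P114 arrays with that between the CMT-U27 arrays. The p-values thus do not measure the spread of the P114 arrays alone. A gene with opposite signs on the P114 arrays can have a low p, as did RPL35 (-0.64 and 0.20, limma unadjusted p = 0.0274). The number of arrays limits the precision. The fit was tested on simulated data with the same noise on all arrays, although array 1 stood apart in the real data. At an adjusted p below 0.05 it called 0 of 50 probes changed by 0.5 in log2 and 29 of 50 changed by 1. It also called 9 unchanged probes. Figures used Python 3.11.15, pandas 2.3.3 and matplotlib 3.10.9. Genes were named by rule: among genes well above background in all 4 P114 channels, the 12 highest and 12 lowest by the smaller of the ratios with the same sign, 6 in each orientation with opposite signs, up to 3 per list by unadjusted p, 6 by the difference between lines, named genes detected in 1 culture only, and a fixed set of sort, keratin, macrophage and secreted-factor genes. Of that set KRT8, MKI67, CSF1R, AIF1 and PTPRC have no tested ratio here. Other list members were added to describe their list. Members and the 23 lists (713 genes, 517 tested) were chosen with earlier results of these data known, so counts of listed genes are descriptions. Alternatives covered background correction, the software's ratio, the series value table, median centring, Aquantile, filters on dim probes, marked spots, the dye term, probe choice and leaving out each array.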

Additional observations from a re-analysis of the deposited data

How the results depend on the processing

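Each ratio already pairs the co-culture and the single culture of 1 array. No further pairing between arrays was possible because the labels number no replicates. The count of 0 probes past the adjusted threshold in P114 became 5 with median centring and stayed at 0 in the other settings that kept all arrays. Leaving out an array of P114, it ranged from 0 to 64 (64 without replicate 2, when array 1 stands alone and is assumed to vary like CMT-U27). For the difference between lines, 0 became 1 with no background correction and 12448 with median centring, and ranged from 0 to 61 with an array left out (61 without P114 replicate 2, 8 without CMT-U27 replicate 1). Probes alike on both arrays beyond 0.3 numbered 170, against 300 with no background correction, 905 with the software's ratio and with the series value table, 1061 with median centring and 23 beyond 0.5. Opposite probes numbered 561, against 1819, 1819, 962 and 67 with the software's ratio, the series value table, median centring and a limit of 0.5. Opposite probes thus outnumbered those alike in every setting but median centring. With the software's other background flag, 34 probes instead of 21 were detected in 1 culture only. The number of lists with the same sign of the median on both arrays was 16 of 23 and lay between 13 and 17 in the alternatives.

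Directions turned in 17 named genes with median centring, which raised the median of all probes to 0.16: FDFT1 (0.092), TGFBR2 (0.018), PFKFB3 (0.044), DDIT4 (0.081), CDKN1A (0.065), RPL13A (0.16), RPL35 (0.25), RPS23 (0.26), COX4I1 (0.31), NDUFA4 (0.29), KRT18 (0.17), THY1 (0.078), CD4 (-0.13), KRT15 (0.23), EPCAM (0.36), VIM (0.41) and CSF1 (0.24). CD44, at 0.00 in the fit, and VIM turned to -0.024 and 0.035 with no background correction, and to -0.00092 and 0.045 with the software's ratio and the series value table. GRAP, NFKBIA, NOL12 and ZNF17 passed the adjusted threshold with median centring, at 1.85, 1.17, 1.31 and 1.21. The cause was not tested. With array 1 left out RPL35 (0.20), RPS23 (0.11), CD14 (-0.072), CD44 (-0.34), VIM (0.25), CD68 (-0.12) and VEGFA (-0.057) turned, and with array 2 left out EGR1 (0.068), THY1 (0.057), CD4 (-0.084), KRT15 (0.023), CDH1 (-0.29), IL8 (-0.37) and CSF1 (0.23). Each line had only 2 arrays, and P114 array 1 stood apart from the others in its share of probes well above background. It had 89.4% in co-culture and 91.7% in single culture, against 60.4% and 61.6% on P114 array 2 and between 57.9% and 65.7% on the CMT-U27 arrays.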
